A study of Homo sapiens with 23 samples.

Results

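The loops described here are those of the FKBP5 locus on human chromosome 6. A listed loop was included when either of its 5 kb bins lay inside the 500 kb region from 35400001 to 35900000 (hg38), which holds FKBP5 (gene ID 2289, 35573590 to 35728583). The rule found 33 of the 16666 listed loops, 13 of 7075 in the library named T0 and 20 of 9591 in the library named T30. Both libraries came from T47D, an established human breast cancer line, and were made by HiChIP, which ligates DNA ends that lie near each other in the nucleus and then enriches the ligated DNA with an antibody. The labels name the progesterone receptor (PR) as the target. Per the protocols, which all samples of the series share, cells were kept in medium without phenol red and with charcoal-stripped serum, then without serum, before they received R5020, a synthetic progestin, or progesterone. T0 is the library without a named hormone. The title of T30 reads PR5020, and the labels give neither its dose nor a unit for its time. There was 1 library per condition, so no difference below has a replicate check, no condition was tested, and all intervals cover counting error only. The lists hold no expression values, so the label of the cell line was not checked against marker genes.

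FKBP5 encodes FKBP51, a co-chaperone that binds HSP90 in steroid receptor complexes and lowers the receptor's affinity for its hormone. The gene is a well known target of the progesterone and glucocorticoid receptors, which act largely through response elements in its introns and beyond its ends, and its induction dampens further receptor activity. A loop to the start of such a gene is a way in which a distant element can lie near the promoter. Since HiChIP selects on PR, the number of contacts of a loop moves both with how often its ends met and with how much PR-bound DNA was recovered, and the 2 cannot be told apart here.

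FKBP5 is transcribed from the upper coordinate downwards, and the RefSeq promoter table (GRCh38.p14) gives 2 start regions for it. The upper one is in the bin that starts at 35725001, at which the hub loops of T30 met, and the lower one in the bin from 35685001 to 35690000, at the other end of the loop with the most contacts of the region in T30. The start of the long noncoding RNA gene LOC285847 lies in the bin from 35735001 to 35740000, where 5 of the 13 T0 loops met. The promoter windows, 250 bases before to 50 after each start, are printed for these 3 starts. The upper FKBP5 start and the LOC285847 start lie in bins where loops met. The lower FKBP5 start lies at the other end of 1 loop. All 3 starts are on the minus strand, with windows at chr6:35728534-35728833, chr6:35688866-35689165 and chr6:35736898-35737197. Capitals mark matches on either strand to AGAACA, the half-site of the element that steroid receptors bind (TGTTCT on the other strand).
FKBP5 upper start: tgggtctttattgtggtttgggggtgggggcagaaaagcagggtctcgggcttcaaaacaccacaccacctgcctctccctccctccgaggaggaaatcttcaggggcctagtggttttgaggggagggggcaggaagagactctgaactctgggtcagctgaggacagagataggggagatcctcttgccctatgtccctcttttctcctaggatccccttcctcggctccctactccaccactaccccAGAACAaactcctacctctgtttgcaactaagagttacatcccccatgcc
FKBP5 lower start: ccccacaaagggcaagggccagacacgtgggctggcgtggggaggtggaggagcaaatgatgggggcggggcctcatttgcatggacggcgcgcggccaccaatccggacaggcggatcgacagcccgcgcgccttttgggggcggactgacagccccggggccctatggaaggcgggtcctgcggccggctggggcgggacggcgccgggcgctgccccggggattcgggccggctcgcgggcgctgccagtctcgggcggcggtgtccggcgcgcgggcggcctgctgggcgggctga
LOC285847 start: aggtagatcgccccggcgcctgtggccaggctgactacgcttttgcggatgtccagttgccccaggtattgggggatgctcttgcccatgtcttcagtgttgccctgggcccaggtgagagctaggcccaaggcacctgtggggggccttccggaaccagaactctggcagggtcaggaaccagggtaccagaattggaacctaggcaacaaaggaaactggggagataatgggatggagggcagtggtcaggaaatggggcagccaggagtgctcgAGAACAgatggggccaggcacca

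The upper FKBP5 start had 1 half-site, which begins at the first base of the gene. The lower start had 0, and the LOC285847 start had 1, from 27 bases past its first base. Half-sites were found in 14.8% of the 34943 promoter windows in the table, so 1 match in a window of this length is common. The whole palindrome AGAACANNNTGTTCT was found in 1 of all the windows and in none of these 3. The lower FKBP5 start was rich in G and C (76.0% of bases), against 55.7% at the upper start and 60.3% at LOC285847. A match to these letters is not a measured binding site, and sequence outside these windows was not used here.

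Loops of the region fell into a hub at the upper end of FKBP5 and a separate set further down. The hub was taken as the 3 bins from 35725001 to 35740000, a range chosen with the loops known because it holds the meeting bins of both libraries. T0 listed 7 loops at the hub with 128 contacts, and T30 listed 16 with 366. Contacts are read pairs that join the 2 bins of a loop. The other loops of the region numbered 6 in T0, with 101 contacts, and 4 in T30, with 62. The hub thus held more loops and contacts in T30 and the rest of the region fewer, and the total over the region was 229 contacts in T0 and 428 in T30.

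**Figure D1:**
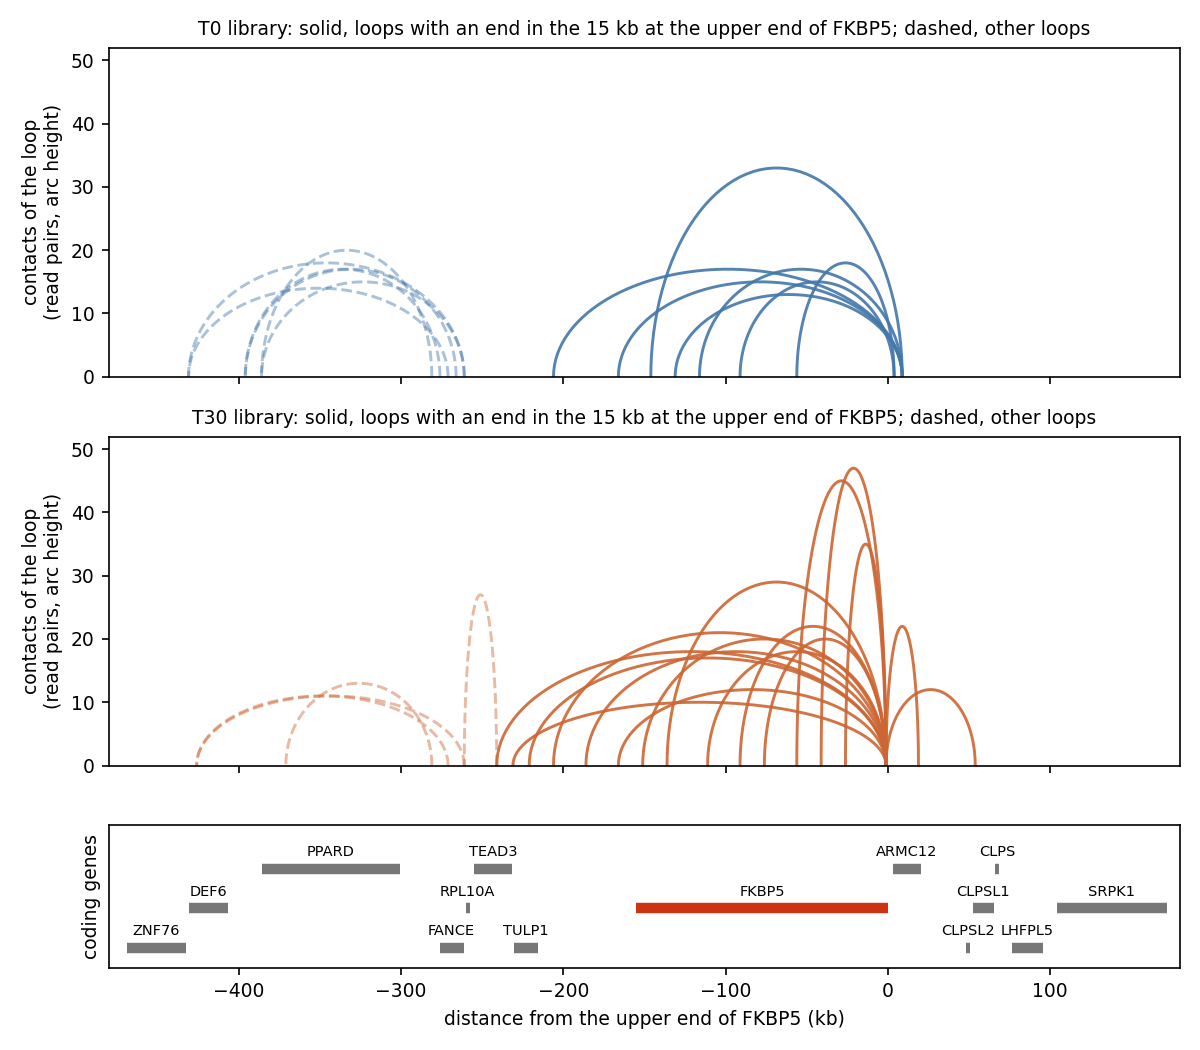
Listed loops of the region in T0 (top) and T30 (middle), with coding genes beneath. The horizontal axis is the distance in kb from the upper end of FKBP5 and the height of each arc is the number of contacts in read pairs, with solid arcs for loops at the hub and dashed arcs for the others. The 16 hub loops of T30 meet in 1 bin and reach both sides of it, while the 7 of T0 meet just past the gene and all reach down.

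In T0 the hub was split over 2 bins just above FKBP5. The bin from 35735001 to 35740000 had 5 partners, meaning distinct bins joined to it, and the bin from 35730001 to 35735000 had 2. Both lie in ARMC12, an armadillo repeat gene, and in LOC285847. The bin that holds the upper FKBP5 start had no listed loop in T0, and neither did the bin of the lower start. Because the list holds only loops past the authors' threshold, this is not a count of 0 contacts.

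In T30 all 16 hub loops met in a single bin, 35725001 to 35730000, the one with the upper FKBP5 start. Neither of the T0 hub bins was a listed end in T30. By number of partners the T30 bin ranked the tenth of 13649 loop-end bins, level with 3 others. Bins with 5 or more partners made up 2.21% of loop-end bins in T30 and 2.44% in T0, where 122 bins had the same 5 partners as the T0 hub bin. A hub of 5 was thus among many of its size in T0, while one of 16 was among few in T30. With bins merged to 15 kb, which joins the 2 T0 hub bins, the partners numbered 7 in T0 and 16 in T30. No rank is given here for merged bins.

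The places listed for the T0 hub were also listed in T30, within 5 kb, and T30 listed others besides. The T0 hub loops had at least 13 contacts, while T30 listed hub loops from 10 contacts up. A partner listed in T30 alone can thus have had contacts in T0 that were not listed. The same overlap is not given here for other hubs. Of the 7 T0 partners, 4 were the identical bin in T30 and all 7 were within 5 kb of a T30 partner. Seen from T30, 7 of 16 partners (43.8%) lay within 5 kb of a T0 partner, and 9 of 16 (56.2%) lay 15 to 110 kb away. Those 9 held 199 of the 366 hub contacts in T30. The positions that both libraries shared therefore held 167 contacts in T30, more than the 128 of the whole T0 hub.

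Of all hub partners, 5 positions inside the gene were partners in T0, and all had a T30 partner within 5 kb. The loop from the bin at 35580001, near the lower end of FKBP5 where transcription ends, had 33 contacts in T0, and its neighbour at 35595001 had 13. In T30 the bins at 35575001 and 35590001 took their place with 20 and 29 contacts. Near the lower end the sum was thus 46 contacts in T0 and 49 in T30, and the highest value lay 10 kb higher up in T30. The bin at 35610001 had 17 contacts in T0, and the adjacent bin at 35615001 had 18 in T30.

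Further up the gene the libraries were further apart. Loops were also shorter over the whole T30 list, with a median span of 80 kb against 190 kb in T0. The bin at 35635001 had 15 contacts in T0 and 22 in T30, and the bin at 35670001 had 18 and 45. T30 also listed 3 gene positions with no T0 partner within 5 kb. These were 35650001 with 20 contacts, 35685001, the bin of the lower start, with 47, and 35700001 with 35. The 47 contacts join the bins of the 2 FKBP5 starts over 40 kb, and this loop had more contacts than any other of the region in either library. The 3 gene positions nearest the hub, at spans of 25 to 55 kb, held 127 of the 236 contacts that T30 listed within the gene. T0 listed 96 contacts between gene positions and the hub, of which 18 came from this stretch.

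Beyond the lower end of the gene, T0 listed 2 positions and T30 listed 6. The bin at 35520001, between TULP1 and FKBP5 and in no annotated gene, had 17 contacts in T0 and 21 in T30. The bin at 35560001, in the noncoding gene LOC124901310, had 15 and 12, so it was not higher in T30. The other 4 were listed in T30 alone. They were the bin of the LINC03135 start at 35540001 with 18 contacts, a TULP1 bin at 35505001 with 17, the bin of the TEAD3 start at 35495001 with 10, and a bin within TEAD3 at 35485001 with 18. TEAD3 encodes a DNA-binding factor of the Hippo pathway and TULP1 a tubby-like protein of photoreceptors. The last of these spanned 240 kb, the longest hub loop of either library. Above the hub, T30 listed an ARMC12 bin at 35745001 with 22 contacts and the bin of the CLPSL1 start at 35780001 with 12, and T0 listed none.

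**Figure D2:**
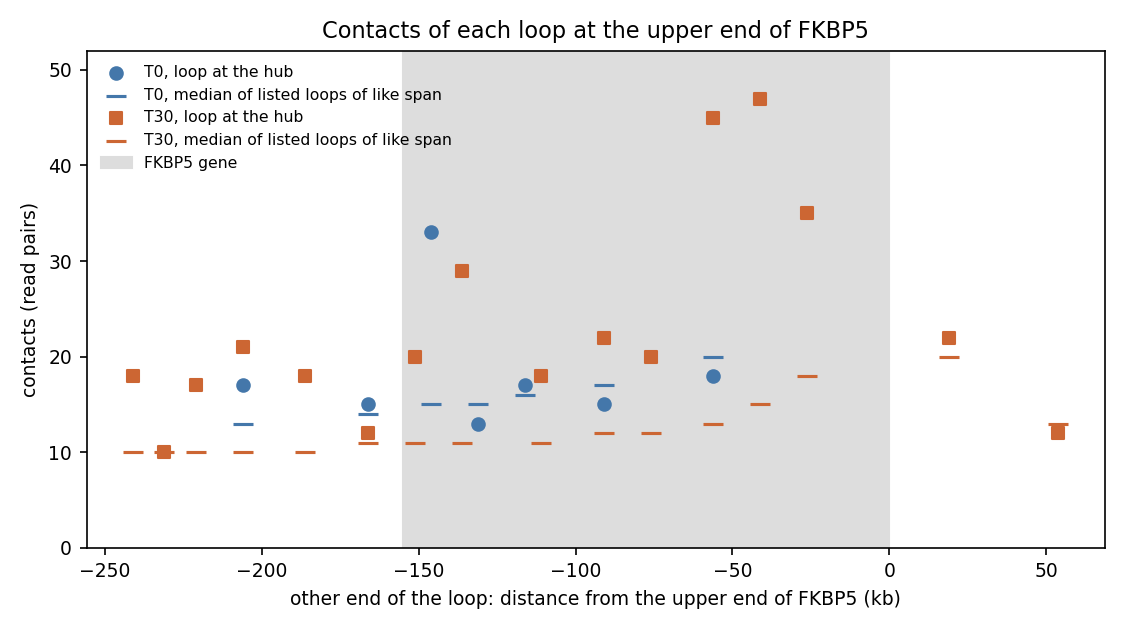
Contacts in read pairs (vertical axis) of each hub loop against the distance in kb of its other end from the upper end of FKBP5 (horizontal axis), for T0 (circles) and T30 (squares), with FKBP5 shaded. Short bars give the median of all listed loops of like span in the same library. The T30 loops at 25 to 55 kb within the gene, with 35 to 47 contacts, lie above bars at 13 to 18, and the T30 loop with 29 contacts and the T0 loop with 33 lie above bars at 11 and 15.

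Ligation contacts are in general rarer over longer distances, so each loop was set beside all listed loops of the same library whose span was within 20% of its own. In T30, 14 of the 16 hub loops had more contacts than the median of their peers, and their middle value was that 95.25% of the peers had fewer contacts. The loop between the 2 starts had 47 where 1159 peers had a median of 15, and 99.7% of the peers had fewer. The loop from 35670001 had 45 against a median of 13. In T0, 4 of 7 hub loops were above the median of their peers, and the middle loop had more contacts than 53.5% of them. The T0 hub loops highest among their peers were the loop from 35580001, with 33 contacts against a median of 15 (97.7% of peers had fewer), and the loop from 35520001, with 17 against 13 (75.4%). The other 5 T0 loops were above 19.6 to 55.2% of their peers. In T30, 4 hub loops were above 20.4 to 64.0% of their peers. They were the loops to the TEAD3 start (10 contacts, median 10), to CLPSL1 (12, median 13), to ARMC12 (22, median 20) and from 35560001 (12, median 11). The other 12 were above 92.2 to 99.7% of them.

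The authors' p-values come from their own model of how many contacts a pair of bins should have. Read as the upper tail of a Poisson count, which is an assumption, they imply 2.94 to 6.26 expected contacts for the T0 hub loops and 1.45 to 6.83 for those of T30. Contacts per expected contact ran from 2.88 to 11.2 in T0, with a median of 4.0, and from 3.22 to 16.2 in T30, with a median of 10.6. The ranges overlap, and the measure was also higher over the whole T30 list. The median over all listed loops was 4.65 in T0 and 6.15 in T30, and over the other loops of the region 5.06 and 7.95. The T0 hub was thus below its list and the T30 hub above its own. The highest value was that of the loop from 35580001 in T0 and of the one from 35590001 in T30, and both positions are near the lower end of the gene. The 2 lists were not cut alike, since the largest p-value listed was 0.000233 in T0 and 2.84e-05 in T30.

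Behind each listed loop stands a cluster of neighbouring bin pairs that the authors merged. The deposited fraction of each cluster, multiplied by the number of bin pairs its range could hold, gave a whole number in 100% of rows of both lists (within 1e-06), and it was read here as the number of bin pairs in the cluster. On this reading the T0 hub held 15 bin pairs in 6 clusters with 244 contacts. The T30 hub held 59 pairs in 5 clusters with 1059 contacts. In T30 a single cluster took in 12 listed loops and 55 of the pairs, with ends from 35505001 to 35710000 and from 35720001 to 35740000. Its 997 contacts were the third highest of 9205 clusters in the list. Its upper range covers both T0 hub bins, so contacts at those bins can have been merged into it under the name of the bin at the upper FKBP5 start. The largest T0 cluster of the hub had 8 pairs and 136 contacts, at rank 176 of 6714.

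**Figure D3:**
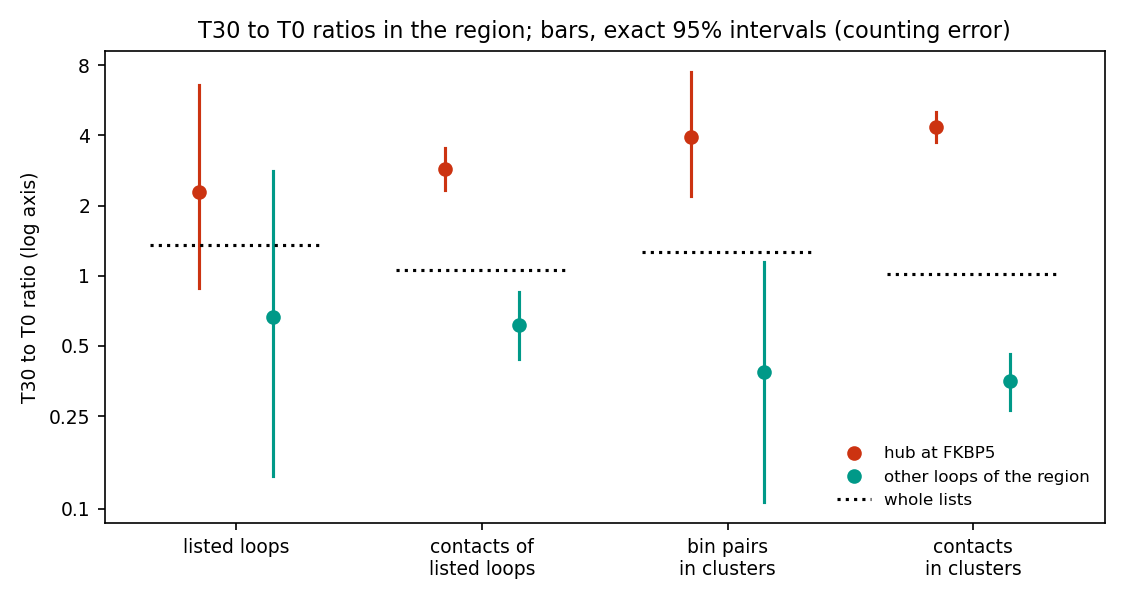
Ratio of T30 to T0 (vertical log axis) for 4 measures of the hub at FKBP5 and of the other loops of the region, with exact 95% intervals as bars, and the ratio over the whole lists as dotted lines. The hub lies above the dotted line in all 4 measures and the other loops lie under it in all 4, while the intervals for listed loops cross the line.

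The share of each measure that came from T30 was compared with its share over the whole lists. T30 supplied 69.6% of hub loops (exact binomial 95% interval 47.1 to 86.8), against 57.5% of all listed loops, a difference within counting error. For contacts of listed loops the hub's share was 74.1% (70.0 to 77.9) against 51.5%. For bin pairs it was 79.7% (68.8 to 88.2) against 55.8%, and for contacts in clusters 81.3% (79.0 to 83.4) against 50.6%. The hub therefore exceeded the whole lists in contacts and in bin pairs, by intervals that treat contacts and pairs as independent although they share 1 end. The hub's bins were chosen with the loops known, so these values describe the hub and do not test it. In the number of listed loops it could not be told from them. As ratios of T30 to T0, the hub had 2.86 for contacts and 4.34 for contacts in clusters, where the whole lists had 1.06 and 1.02.

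The region was also counted as a window of 500 kb. Its 13 loops in T0 and 20 in T30 make a ratio of 1.54, where the whole lists had 1.36 and the share from T30 had an interval of 42.1 to 77.1%. A window was called when it had at least 2-fold and at least 5 more loops in T30. The region was not called, while 9.86% of the 2910 windows with a listed loop were. With both bins of a loop required to lie inside, the region had 7 and 17 loops, a ratio of 2.43, and was called, as were 13.6% of 2036 windows. A gain of 7 loops or more was found in 7.04% of windows. Both libraries listed many loops here, as 144 windows held 13 or more in T0 and 92 held 20 or more in T30, where the median window held 2. The adjacent windows held 7 and 8 loops below the region and 1 and 1 above it, in T0 and T30.

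Each T0 loop was matched to its mutually nearest T30 loop with overlapping clusters at both ends. Such a match was found for 1332 of the 7075 T0 loops. All 7 hub loops of T0 had one. The range of the large T30 cluster covers both ends of each, so this was largely given by the matching rule. For these 7 the middle ratio of T30 to T0 contacts was 1.24, where the median over all 1332 matched loops was 0.658. Divided by that median, 3 of the 7 were at least 2-fold higher in T30, against 4.73% of all matched loops. These were the loop from 35670001 (18 and 45 contacts, scaled ratio 3.80, exact interval 2.16 to 6.98), the one from 35595001 (13 and 29, 3.39, 1.71 to 7.11) and the one from 35635001 (15 and 22, 2.23, 1.11 to 4.62). The intervals of the other 4 included 1. The loop from 35580001, with 33 contacts in T0 and 20 in T30, had a scaled ratio of 0.922 (0.501 to 1.65). That loop and the one from 35595001 belong to 1 T0 cluster. Together they had 46 contacts in T0, and their 2 matches had 49 in T30. The count of 3 thus includes a loop from a stretch with nearly the same sum in both libraries before scaling. Without the division only 2 of the 7 were at least 2-fold higher, with 2.50 and 2.23, and the ratio of the third was 1.47. Per implied expected contact, 5 of the 7 were at least 2-fold higher, with a median of 2.37, against 20.6% of all matched loops and a median of 1.52. These ratios compare 2 libraries and not 2 conditions.

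**Figure D4:**
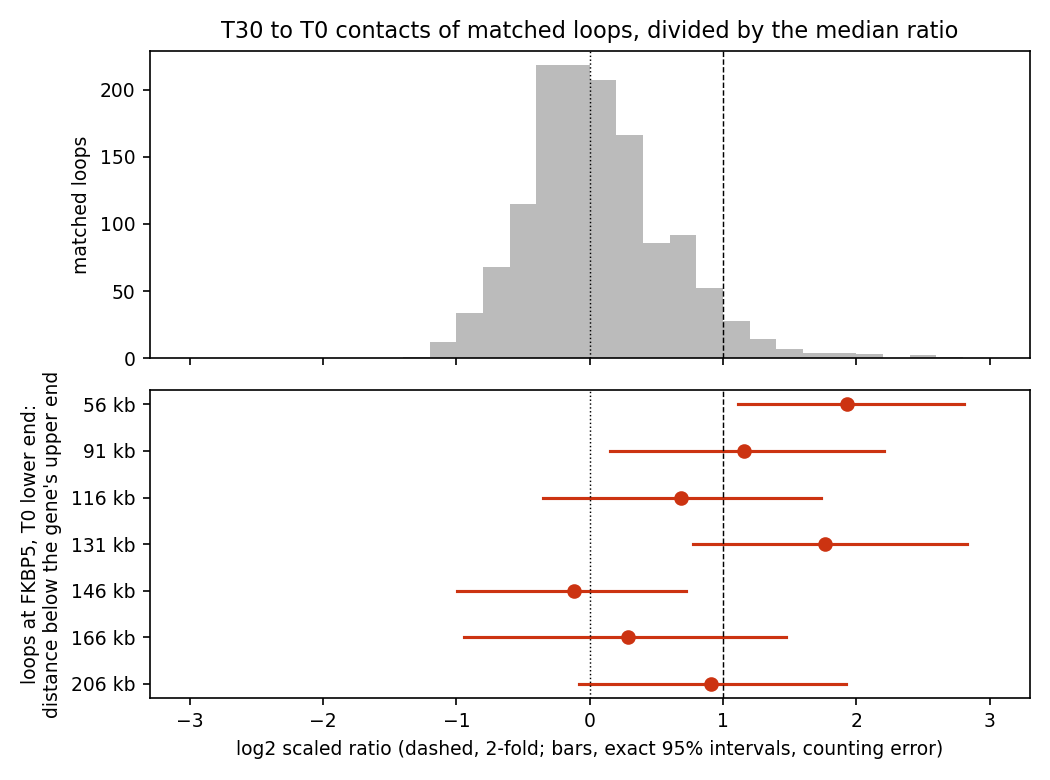
Top, number of matched loops (vertical axis) by the log2 of their T30 to T0 contact ratio divided by the median ratio (horizontal axis). Bottom, the 7 matched hub loops, one per line, named by the distance in kb of their T0 lower end from the upper end of FKBP5, with exact 95% intervals as bars. The dashed line marks 2-fold, and 3 of the 7 points lie beyond it.

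The meeting point can also be read from the matched loops. The hub bins given above already fix that the hub end was lower in T30 in all 7 pairs. The offset was 5 or 10 kb, and in no pair was the bin the same. Over all matched loops the upper end was the same bin for 66.7%, lower in T30 for 17.3% and higher for 16.0%, so upper ends had no common offset. Lower ends were the same for 66.2%, lower for 12.8% and higher for 20.9%. The far ends of the 7 were in the same bin in 4 cases, lower in 2 and higher in 1 in T30. The 7 pairs share 1 hub and are not independent observations of a difference, and 5 kb is the width of 1 bin. The large T30 cluster also covers the T0 hub bins, so the offset is between the bins listed and may not be one of contacts.

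Counted at the gene body, as bins that overlap FKBP5, the gene had 5 loops in T0 and 16 in T30. Its distinct partner bins numbered 2 and 17, because the T0 partners are the 2 hub bins outside the gene, while in T30 the gene's own bins are joined to each other. A gene was called when it had at least 2-fold and at least 5 more partners in T30. FKBP5 was called, as were 4.32% of the 6342 coding genes with a loop in either library. The number depends on where the gene is taken to end. Widened by 10 kb on each side, which takes in the T0 hub, FKBP5 had 9 partners in T0 and 17 in T30 and was not past 2-fold.

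Of 16 other coding genes of the neighbourhood, fixed as a list or found at a loop end, 7 had a listed loop in T0 and 10 in T30. More partners were listed in T30 for 4 of them, fewer for 5 and as many for 7, and none was called. Over all 20037 coding genes 3938 had a listed loop in T0 and 4694 in T30. Of these 20037 genes, 3287 had more partners in T30, 2308 fewer and 14442 equal numbers. ARMC12 had the opposite order to FKBP5, with 7 partners in T0 and 1 in T30, since the T0 hub bins lie in it. TEAD3 had 0 and 2, TULP1 0 and 1, and CLPSL1, a colipase-like gene, 0 and 1. CLPS, CLPSL2, LHFPL5, SRPK1, SLC26A8 and MAPK13 had 0 in both.

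**Figure D5:**
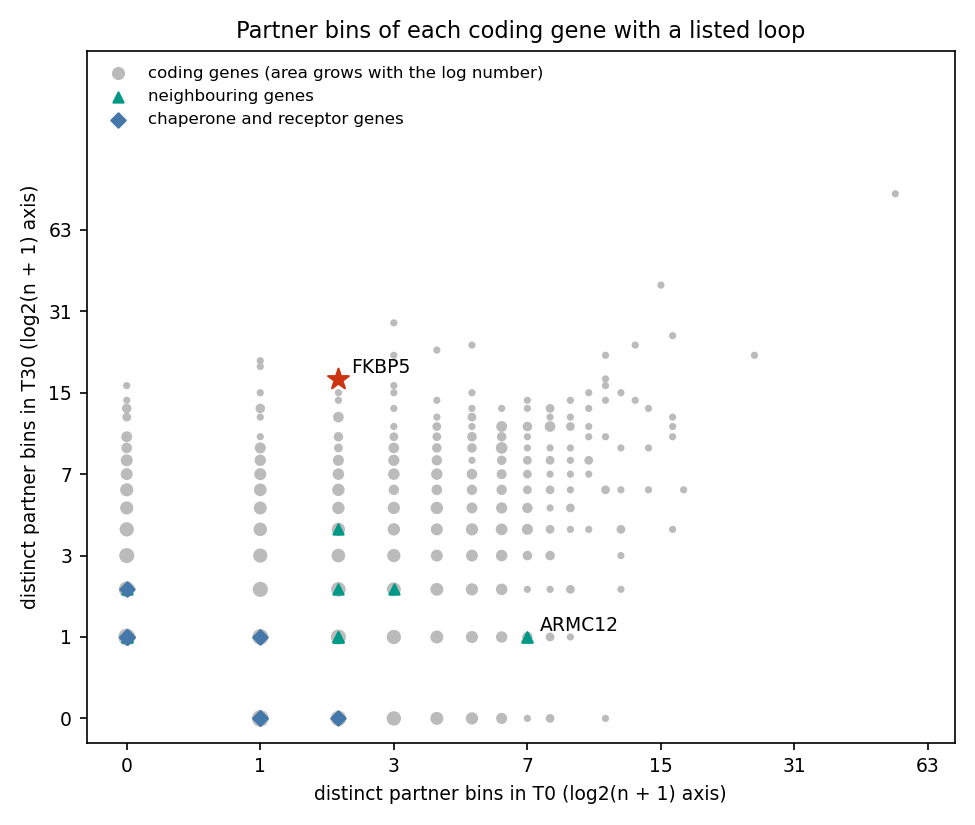
Distinct partner bins in T0 (horizontal axis) and T30 (vertical axis) of every coding gene with a listed loop, both axes on a log2(n + 1) scale with n printed. FKBP5, at 2 and 17, lies far above its neighbours (triangles) and the chaperone and receptor genes (diamonds), and ARMC12 lies at 7 and 1.

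The set further down joined genes at the lower edge of the region. In T0, the bin at 35295001, which holds the start of DEF6, a guanine nucleotide exchange factor of immune cells, and a stretch of the zinc finger gene ZNF76, was joined to FANCE at 35455001 (14 contacts) and to the bin of the RPL10A start at 35465001 (18). The bin of the start of PPARD, a nuclear receptor gene, at 35340001 was joined to a bin just below FANCE at 35445001 (20) and to the RPL10A bin (15). A bin at 35330001 between DEF6 and PPARD was joined to 2 FANCE bins with 17 contacts each. FANCE encodes a subunit of the Fanconi anaemia core complex and RPL10A a ribosomal protein. In T30 the DEF6 ends were listed at the next bin, 35300001, with 11 contacts to each of the same 2 bins, and PPARD had 1 loop, from 35355001 to 35445001 with 13. T30 also listed a loop of 20 kb from the RPL10A bin to TEAD3 at 35485001 with 27 contacts. That TEAD3 bin is also an end of the longest hub loop, and it was the one bin that both sets shared.

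In raw contacts this lower set went the other way from the hub. T30 supplied 38.0% of its contacts (30.6 to 46.0) and 26.1% of its contacts in clusters (21.0 to 31.6), under the 51.5% and 50.6% of the whole lists. By listed loops the share was 40.0% (12.2 to 73.8) and could not be told from the whole. Per implied expected contact the set was higher in T30, with medians of 5.06 in T0 and 7.95 in T30. The whole lists had 4.65 and 6.15. The set is what the choice of the hub bins left over, and its intervals also treat contacts as independent. The 2 DEF6 loops that could be matched had ratios of 0.786 and 0.611, near the 0.658 of all matched loops, and so their scaled ratios were 1.19 (0.491 to 2.83) and 0.929 (0.397 to 2.08).

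Gene starts lay at some loop ends of the region in both libraries. Of the listed bins inside the region, 3 of 14 in T0 held a start in the promoter table, at FANCE, RPL10A and LOC285847. In T30 these were 6 of 20, at RPL10A, TEAD3 together with LOC124901309, LINC03135, both FKBP5 starts and CLPSL1. Loop ends outside the region were left out of these counts. Among them, the bins of the DEF6 and PPARD starts had 2 partners each in T0 and 0 in T30. The ends of ARMC12 lie in the listed bins at 35730001 (T0) and 35745001 (T30). No ARMC12 start was given in either bin, so these counts can be too low. With so few bins the shares were not compared further.

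FKBP5 acts with other chaperones of steroid receptors, and these were counted the same way. Of 24 genes for HSP90 and HSP70 chaperones, their co-chaperones and the receptors, 4 had a listed loop in T0 and 6 in T30. Of all 20037 coding genes, 3938 had one in T0 and 4694 in T30. More partners were listed in T30 for 5 genes of the list, fewer for 3 and as many for 16. None was called, and with 274 of all 20037 coding genes called a list of this size need hold none. HSP90AA1, the inducible HSP90, had 2 partners in T0 and 0 in T30, HSP90AB1, the constitutive form, 1 and 0, and FKBP4, the relative of FKBP5 that favours receptor activity, 1 and 0. PPP5C, a phosphatase that binds HSP90 through the same kind of repeat as FKBP51, had 0 and 2, and PTGES3, which encodes the HSP90 co-chaperone p23, 0 and 1. Among the receptor genes, PGR, NR3C1 and NR3C2 had 0 in both. The highest count in the list was 2, against 17 at FKBP5. Of 2 other hormone-induced genes, TSC22D3 had 1 and 1 and PER1 had 0 and 1.

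The coding genes outside the region whose partner numbers lay nearest to those of FKBP5 were found by the distance of log2(partners + 1) over the 2 libraries. They were MAD1L1 with 2 partners in T0 and 15 in T30 (distance 0.17), ZMIZ1 with 2 and 14 (0.263), LOC124900275 with 3 and 16 (0.423), CHN2 with 3 and 15 (0.448) and AGO2 with 2 and 12 (0.469). Likeness over 2 libraries is a description of these counts alone.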

How the data were processed

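Loops came from 2 HiChIP libraries, T0 and T30, of the 23 samples of the series. The other samples were not analysed here. The deposited lists hold loops up to a q-value of 0.05 after near contacts were merged, and the labels name FitHiC. For each pair of 5 kb bins the authors give a raw count of read pairs, with no normalization, and a second count summed over the merged cluster. Each loop also has a deposited p-value and q-value, whose columns carry the word bias, per the file headers. A last deposited column is a fraction per cluster without a definition. The submitters' processing notes name Bowtie, hg38 and GRCh38 with no role. The caller's other settings are not stated, and whether replicates were pooled is not given in the sources used here. The depth of either library is unknown, and the listed loops hold 127457 contacts in T0 and 135538 in T30.

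Computed here were partners, clusters, windows on the region's 500 kb grid, matches of loops and exact 95% binomial intervals, which treat read pairs as independent molecules. Genes were taken from a RefSeq table of GRCh38.p14 and starts from its promoter table. Exons and introns were not used here. Other settings tried were q under 0.01, at least 10 contacts, a span of at least 20 kb, lists of equal length, other region, gene, bin and match rules and other scalings. Division by implied expected contacts and windows that hold both bins of a loop were chosen after seeing the data, as were the hub's 3 bins and the motifs. The text names FKBP5, genes at the region's loops or inside it, a list of neighbours, a list of chaperones and receptors, the 5 most similar genes and the loops of the region. The members and lists were chosen with earlier results of these data known. The steps were tested on simulated data, in which the loops to be matched lay far apart. Matching among crowded loops, as at this hub, was not simulated. The work was done in Python 3.11.15 with scipy 1.17.1 for intervals, pandas 2.3.3, numpy 2.4.6 and, for plots, matplotlib 3.10.9. One gene of the chaperone and receptor list is counted but not reported by name here.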

Additional observations from a re-analysis of the deposited data

How the results depend on the processing

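Of 50 values recomputed under other settings, 9 moved beyond the limit set for their kind and none changed direction. With both bins inside the region, T0 had 7 loops in place of 13 and T30 17 in place of 20, which turns the call of the region as a window. FKBP5 had 9 T0 partners when widened by 10 kb and 0 at the bins with either gene end, in place of 2. The share of windows called was 7.3% at q under 0.01 and 6.1% with lists of equal length and 13.6% with both bins inside, a setting chosen after seeing the data, in place of 9.86%. With the contacts of the whole cluster, the median scaled ratio of the matched hub loops was 101 in place of 1.88 and all 7 were at least 2-fold higher, since these 7 loops of 6 T0 clusters were set against 1 T30 cluster. The median was 1.24 without scaling and 1.16 when scaled by summed contacts, each with 2 loops at least 2-fold higher. Divided by implied expected contacts, 5 of the 7 were at least 2-fold higher in place of 3, where 20.6% of all matched loops were. No paired analysis was possible because each condition had 1 library. Loops under the authors' threshold are not listed, so the depth at which the hub bins could be seen in T0 is unknown, and 1 library per condition leaves the spread between libraries unmeasured.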
